A study of Homo sapiens with 6 samples.

Results

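The genes described here encode the carriers of the mitochondrial inner membrane and the machinery that brings proteins into mitochondria. They were taken from the deposited gene table by symbol: SLC25A followed by a number, and symbols that begin with TIMM or TOMM and a digit, without pseudogenes. This gave 68 of 16362 genes, made up of 44 SLC25A carriers, 15 TIMM genes and 9 TOMM genes. The cells were MDA-MB-231, an established human breast cancer line of the triple-negative class, in 3 control libraries whose labels give no agent and in 3 libraries of cells treated with CTI-2 for 24 h. CTI-2 is known here by its code name only, and neither its dose nor any vehicle of the controls is given in the sources used here. Libraries were read as whole cDNA molecules on the Oxford Nanopore platform, and no source says that they came from separate cultures, so p-values may measure technical spread only.

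Most mitochondrial proteins are made in the cytosol and cross the outer membrane through the TOM complex, whose receptors (TOMM20, TOMM22, TOMM70) pass precursors to a channel formed by TOMM40 and small helper subunits. Precursors with a presequence go on through the TIM23 complex of the inner membrane. Hydrophobic precursors, among them the SLC25 carriers, are escorted across the intermembrane space by small TIM chaperones and are inserted by the TIM22 complex. The SLC25 carriers then exchange nucleotides, phosphate, organic acids and amino acids between the mitochondrial matrix and the cytosol.

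Libraries held 2208261 to 3929532 counts, at which 3 counts equal 0.763 to 1.36 CPM (counts per 1000000 counts of the library). Of the marker genes listed for this line, LGALS1 (1054.6 to 1249 CPM) and CD44 (131 to 188 CPM) were present, and VIM, commonly abundant in MDA-MB-231, was at 14.5 to 18.9 CPM. AXL, another mesenchymal marker, was at 2.98 to 7.41 CPM, the oestrogen receptor gene ESR1 at up to 0.509 CPM and the epithelial cadherin gene CDH1 at up to 0.337 CPM. The epithelial marker EPCAM (6.98 to 10.6 CPM) and ERBB2 (4.98 to 11.1 CPM) were counted in every library. Control 2 stood apart from the other controls: genes in the fifth of tested genes with the shortest annotated transcripts lay a median of 0.08 above their 6-library mean, on the log2 scale, in control 2, against -0.09 and -0.18 in controls 1 and 3 and 0.07 to 0.08 in the CTI-2 libraries. Several import genes have short transcripts, so the called genes are also given with single libraries left out and with the length trend removed. In bulk RNA, fewer cells of a type and less RNA per cell cannot be told apart.

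After CTI-2, 6 import genes rose by 1.31-fold to 1.70-fold and no carrier gene passed the test. Unless another fit is named, folds and log2 fold changes are edgeR estimates on TMM-scaled library sizes. The CPM shown use plain library totals, so their ratios differ from these folds. The risen genes were TIMM9 and TIMM10, the partner chaperones of the intermembrane space, TIMM23 and TIMM17B, of the presequence translocase, and TOMM22 and TOMM5, of the outer membrane complex. They were 6 of the 23 import genes with enough counts to be tested, and 0 of 23 were lower, while 0 of 31 tested carriers were called in either direction. Over all 9848 tested genes 3.39% were higher at an adjusted p under 0.05 in edgeR's quasi-likelihood test (the rule for every call here) and 4.64% were lower, 8.03% together. At an unadjusted p under 0.05 there were 12 import genes, all higher, and 8 carriers, 4 in each direction, beside 23.9% of all tested genes. Positive log2 fold changes were found in 21 of the 23 import genes, with a list median of 0.24, and in 15 of the 31 tested carriers, with a median of -0.03. All tested genes had a median of -0.01, and 48.7% were positive. Better-counted genes lay higher, and most import genes are among them. With a mean log2 CPM of 6 to 8 the median was 0.11 over all genes and 0.24 over 13 import genes. From 8 upward it was 0.16 over all genes, 76.4% of them positive, and 0.23 over 6 import genes. Under 4 and from 4 to 6 the medians of all genes were -0.13 and -0.02. These counts and medians describe the lists, and the difference between the lists was not itself tested.

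**Figure D1:**
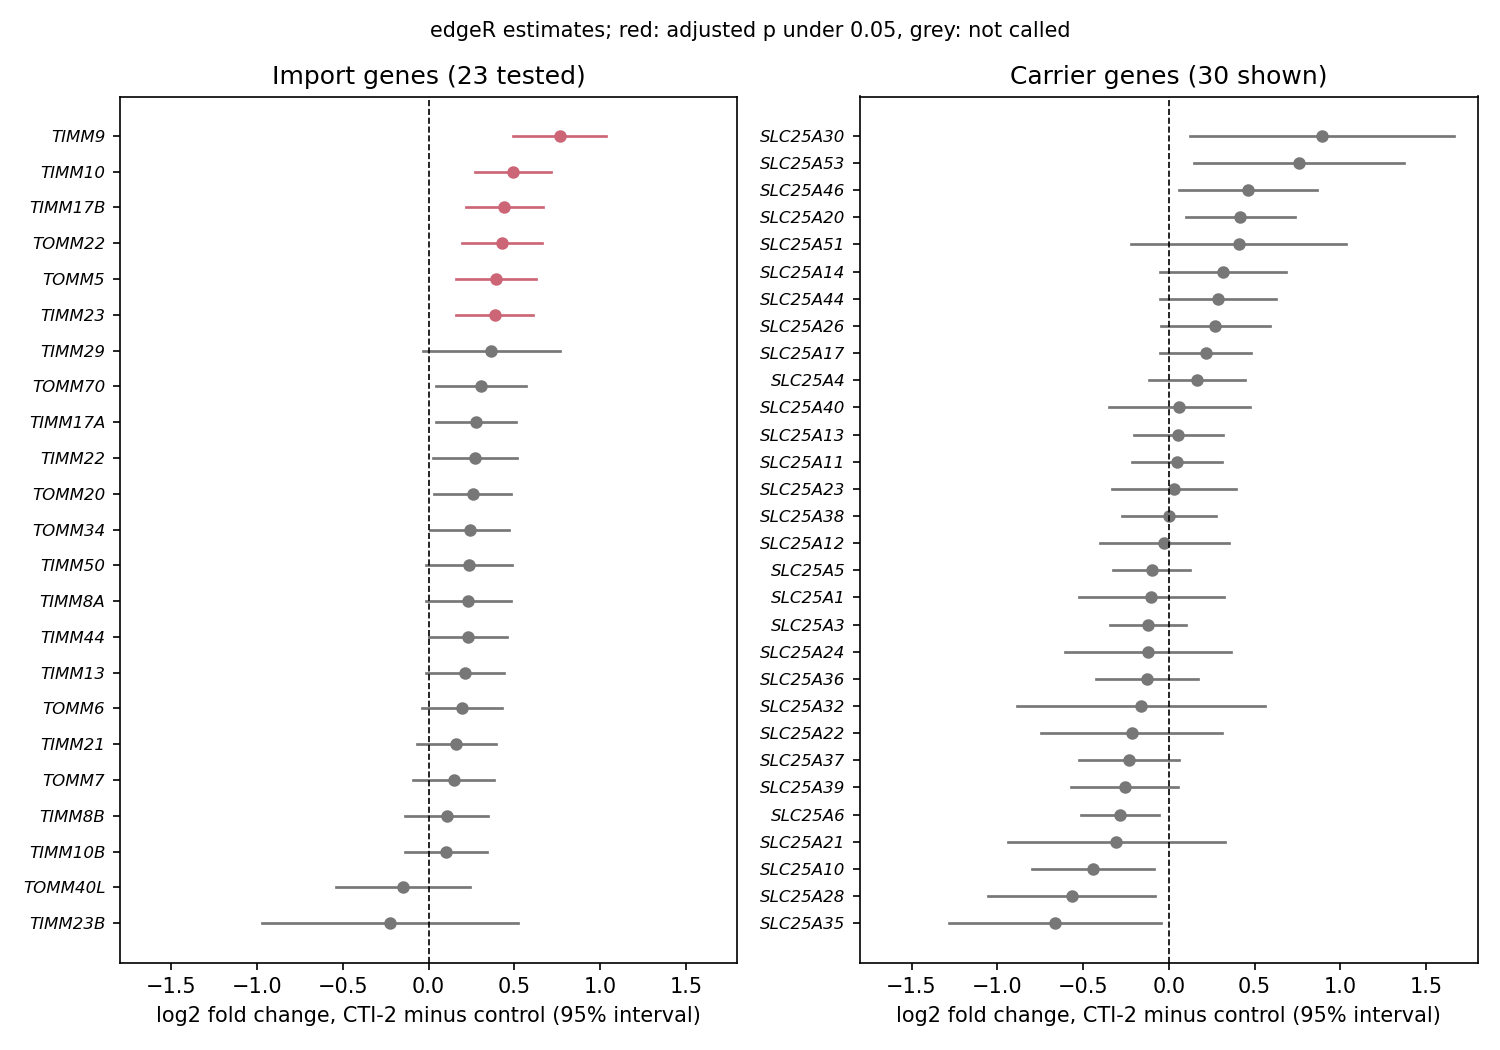
Log2 fold changes, CTI-2 minus control, of the 23 tested import genes (left) and 30 tested carriers (right), with 95% intervals from edgeR. Red marks the 6 genes that passed the test, all of them import genes, and 21 of 23 import genes lie to the right of 0 against 15 of the 30 carriers shown.

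TIMM9 and TIMM10 form the hexameric chaperone that shields carrier precursors in the intermembrane space. TIMM9 (chromosome 14, 58408494 to 58427614, minus strand, GENCODE 29 on GRCh38) had 36.2, 38.4 and 42.1 CPM in controls 1 to 3, against 63.4, 66.7 and 61.6 CPM in the libraries CTI-2 1 to 3. The groups did not overlap and the lowest CTI-2 library lay well above the highest control. Its rise was 1.70-fold (log2 fold change 0.76, SE 0.13, edgeR adjusted p = 0.000353), and it stayed called whichever library was left out. TIMM10 (chromosome 11, 57528463 to 57530803, minus strand) had 157, 176 and 166 CPM in the controls, against 232, 225 and 223 CPM with CTI-2. All 3 CTI-2 libraries were again above all controls. The estimated rise was 1.41-fold (log2 fold change 0.49, SE 0.11, edgeR adjusted p = 0.00412), and this call also held without any 1 library. With library totals in place of TMM scaling the log2 fold change of TIMM10 was 0.44. TIMM9 shares 230 bases with KIAA0586 on the opposite strand, whose log2 fold change was 0.08 (edgeR adjusted p = 0.848).

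The other small chaperones were not called. TIMM13, which works with TIMM8A on a narrower set of precursors, had 387, 443 and 372 CPM in the controls, against 439, 455 and 457 CPM with CTI-2, with control 2 inside the range of the CTI-2 group. Its log2 fold change was 0.21 with a 95% interval of -0.02 to 0.44 (edgeR adjusted p = 0.249), and it was 0.35 without control 2 (adjusted p = 0.00387) and 0.13 without control 3 (adjusted p = 0.543). TIMM8A (log2 fold change 0.23), TIMM8B (0.10) and TIMM10B (0.10), a subunit that joins the small chaperones to the TIM22 complex, had adjusted p of 0.246 to 0.638. All 6 small chaperone genes had positive log2 fold changes, 2 of them called.

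TIMM23 and the TIMM17 proteins form the core of the translocase for presequence proteins. TIMM23 had 220.3, 209 and 182 CPM in the controls, against 253, 256 and 265 CPM with CTI-2. Each CTI-2 library was above each control, and the rise was 1.31-fold (log2 fold change 0.39, SE 0.11, edgeR adjusted p = 0.0243). TIMM17B (chromosome X, 48893447 to 48898143, minus strand) had 156, 136 and 130.2 CPM in the controls, against 183, 177 and 195 CPM with CTI-2. Again no values overlapped, with a rise of 1.36-fold (log2 fold change 0.44, SE 0.11, edgeR adjusted p = 0.00981). Its opposite-strand neighbour PQBP1, with which it shares 232 bases, rose too (0.41, adjusted p = 0.0162), and without a statement on strand in the labels their reads may not have been kept apart, so the value of TIMM17B is uncertain. TIMM23 shares 27.8% of its 31-base words with its near copy TIMM23B, which had only 8 to 19 counts per library and a log2 fold change of -0.22 (adjusted p = 0.762), so reads could be split between them. TIMM17A, the paralog of TIMM17B, had 279, 271 and 215 CPM in the controls, against 296, 298 and 306 CPM with CTI-2, without overlap, but did not pass (log2 fold change 0.28, 95% interval 0.04 to 0.51, edgeR adjusted p = 0.129). It was 0.38 without control 2 (adjusted p = 0.0145) and 0.14 without control 3 (adjusted p = 0.476).

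The remaining inner membrane translocase genes did not pass. TIMM50, the receptor that meets presequences in the intermembrane space, had 75.1, 63.1 and 76.2 CPM in the controls, against 71.7, 80.9 and 91.0 CPM with CTI-2, so that CTI-2 library 1 lay among the controls (log2 fold change 0.24, edgeR adjusted p = 0.242, 0.15 to 0.32 with 1 library left out). TIMM44, which anchors the import motor, was at 104 ± 5.83 CPM in the controls, against 117 ± 5.26 CPM with CTI-2 (± SD, n = 3 libraries each, log2 fold change 0.23, edgeR adjusted p = 0.202). TIMM22, the channel that inserts carriers, and TIMM29, its partner subunit, had log2 fold changes of 0.27 and 0.37 (adjusted p = 0.165 and 0.253), and TIMM21, of the presequence translocase, 0.16 (adjusted p = 0.401).

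In the outer membrane complex, the central receptor TOMM22 (chromosome 22, 38681948 to 38685421, plus strand) had 166, 181 and 142 CPM in the controls, against 208, 214 and 219 CPM with CTI-2. Its highest control, control 2, stayed below every CTI-2 library, and the rise was 1.34-fold (log2 fold change 0.43, SE 0.12, edgeR adjusted p = 0.0174). TOMM5 (chromosome 9, 37582646 to 37592642, minus strand), a small subunit of the complex, had 379, 398 and 313 CPM in the controls, against 451, 474 and 464 CPM with CTI-2. These groups did not overlap either, with a rise of 1.31-fold (log2 fold change 0.39, SE 0.12, edgeR adjusted p = 0.0276). TOMM5 shares 83.5% of its 31-base words with other counted genes, of which AL138752.2, on the same strand, shares the most and had 2 to 5 counts per library, so few reads were given to it.

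The presequence receptor TOMM20 had 322, 337 and 283 CPM in the controls, against 374, 365 and 353 CPM with CTI-2. The groups did not overlap, yet the log2 fold change of 0.26 (95% interval 0.03 to 0.48) did not pass (edgeR adjusted p = 0.147), while it was 0.37 without control 2 (adjusted p = 0.00536) and 0.16 without control 3 (adjusted p = 0.421). TOMM70, the receptor for carrier precursors, was at 59.6 ± 7.57 CPM in the controls, against 70.8 ± 7.66 CPM with CTI-2 (± SD, n = 3 libraries each, log2 fold change 0.31, edgeR adjusted p = 0.135). TOMM34, a cytosolic co-chaperone of import, showed 0.24 on the log2 scale (adjusted p = 0.185). TOMM7, which helps stabilise the complex, had 1233, 1264 and 1063 CPM in the controls, against 1275, 1259.9 and 1278 CPM with CTI-2, with control 2 inside the CTI-2 range (log2 fold change 0.15, edgeR adjusted p = 0.480). Its log2 fold change was -0.05 once the trend with transcript length was removed, 0.25 without control 2 (adjusted p = 0.0236) and 0.04 without control 3 (adjusted p = 0.874).

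TOMM6, another small subunit, had a log2 fold change of 0.20 (edgeR adjusted p = 0.307). All of its 31-base words also lie in the counted gene AL365205.1, which had 758 to 1461 counts per library against 496 to 1068 for TOMM6, so its level is uncertain. TOMM40, the channel itself, had 9, 7 and 11 counts in controls and 15, 4 and 5 counts after CTI-2 and was below the filter. TOMM40 shares 24.8% of its 31-base words with other annotated genes, and 6.8% with counted ones. Whether reads of TOMM40 were given to other genes was not tested. TOMM40L, its paralog, was at -0.15 in log2 fold change (adjusted p = 0.690).

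**Figure D2:**
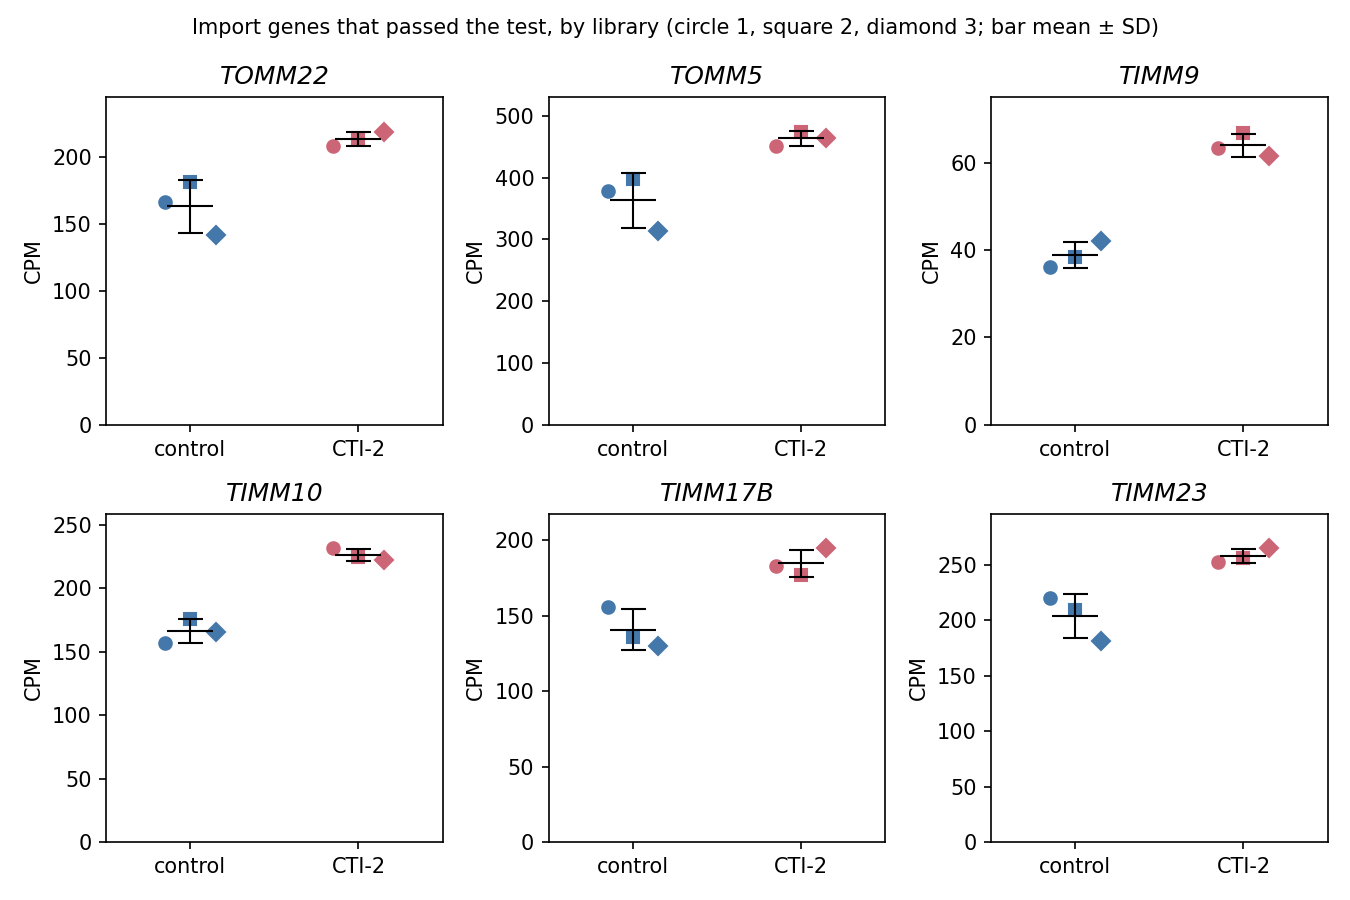
CPM of the 6 import genes that passed the test, by library (circle, square and diamond for replicates 1, 2 and 3), with mean and SD of the 3 libraries per group. In every panel the 3 CTI-2 libraries lie above the 3 controls, with the widest relative gap for TIMM9 (38.9 ± 2.99 against 63.9 ± 2.61 CPM).

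CPM did not overlap between the groups in 11 of the 23 tested import genes, all of them higher after CTI-2, and in 5 higher and 4 lower of the 31 carriers. Over all tested genes 28.8% did not overlap, 13.2% higher and 15.6% lower. Overlap of single genes is read throughout on CPM without TMM scaling, and was not checked with it. Well-counted and short transcripts were called higher more often over the whole table, so the import genes were also read within bands. Among genes with a mean log2 CPM of 6 to 8, 4 of 13 import genes were called higher, beside 9.76% of all 1905 tested genes in that band, and 13 of 13 had positive log2 fold changes, beside 67.2%. In the other bands of mean log2 CPM the counts were 0 of 1 under 4, 1 of 3 from 4 to 6 and 1 of 6 from 8 upward, beside 0.179, 2.33 and 9.55% of all genes there. The 31 carriers lay lower: 10 were under 4, 15 from 4 to 6, 3 from 6 to 8 and 3 from 8 upward, so that most stood in bands where few genes of any kind were called higher. Among genes with annotated transcripts under 1000 bases, 4 of 7 import genes were called higher, beside 9.77% of all 880, and 7 of 7 were positive, beside 73.5%. The 16 longer import genes included the other 2 calls: TIMM23 was 1 of 8 from 1000 to 2000 bases (5.5% of all genes there), TOMM22 was 1 of 5 from 2000 to 3000 bases (3.15%), and 0 of 3 were called from 3000 bases upward (0.892%). Of the carriers, 16 were in the first of these 3 length bands, 7 in the next and 8 in the last. After removal of the length trend all 6 calls held, with log2 fold changes of 0.60 for TIMM9, 0.31 for TIMM10, 0.33 for TIMM17B, 0.31 for TIMM23, 0.41 for TOMM22 and 0.26 for TOMM5 (edgeR adjusted p 0.00679 to 0.0401).

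**Figure D3:**
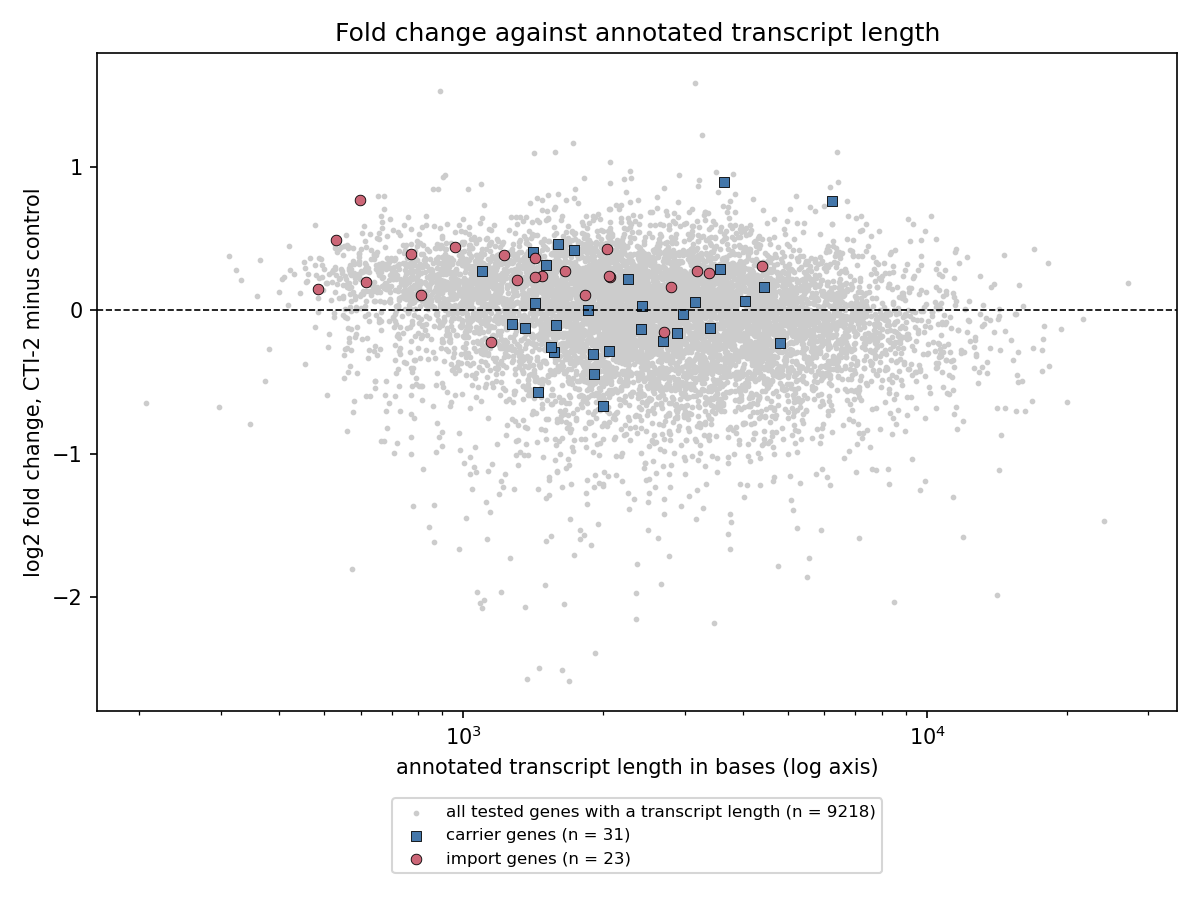
Log2 fold change, CTI-2 minus control, against annotated transcript length on a log axis, for all 9218 tested genes with a length (grey), the 31 carriers (blue squares) and the 23 import genes (red circles). All 7 import genes under 1000 bases lie above 0, and the carriers, none of them under 1000 bases, spread to both sides.

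Several calls were lost with 1 library fewer, as were many over the whole table: 791 genes were called with all libraries, 400 to 552 in the 5 fits that left out a library other than control 2, and 1610 without control 2. TIMM9 and TIMM10 were called in each of the 6 fits that left out a library, and TIMM17B in all but the one without CTI-2 library 3 (adjusted p = 0.0762). Leaving out control 1, control 3, CTI-2 library 2 or the third one ended the call of TOMM22 (adjusted p up to 0.0843). TIMM23 and TOMM5 were called only when control 2 was the library left out, with adjusted p up to 0.128 and 0.126 in the other fits. Without control 2, 11 import genes were higher (the 6 and TIMM13, TIMM17A, TOMM6, TOMM7 and TOMM20) and the carriers SLC25A28 and SLC25A35 were lower. The share of all tested genes called higher there was 9.57%, and without CTI-2 library 3 there were 2 higher import genes, beside 1.08%. Over these 6 fits the log2 fold change was 0.71 to 0.81 for TIMM9, 0.44 to 0.59 for TIMM10, 0.36 to 0.50 for TIMM17B, 0.31 to 0.57 for TOMM22, 0.28 to 0.46 for TIMM23 and 0.27 to 0.52 for TOMM5. The lowest values of TIMM17B, TOMM22, TIMM23 and TOMM5 came without control 3, and the highest of all but TIMM17B came without control 2. Without CTI-2 library 3 the log2 fold changes of TIMM23 and TOMM5 were 0.37 and 0.39, close to those with all libraries, though neither passed.

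**Figure D4:**
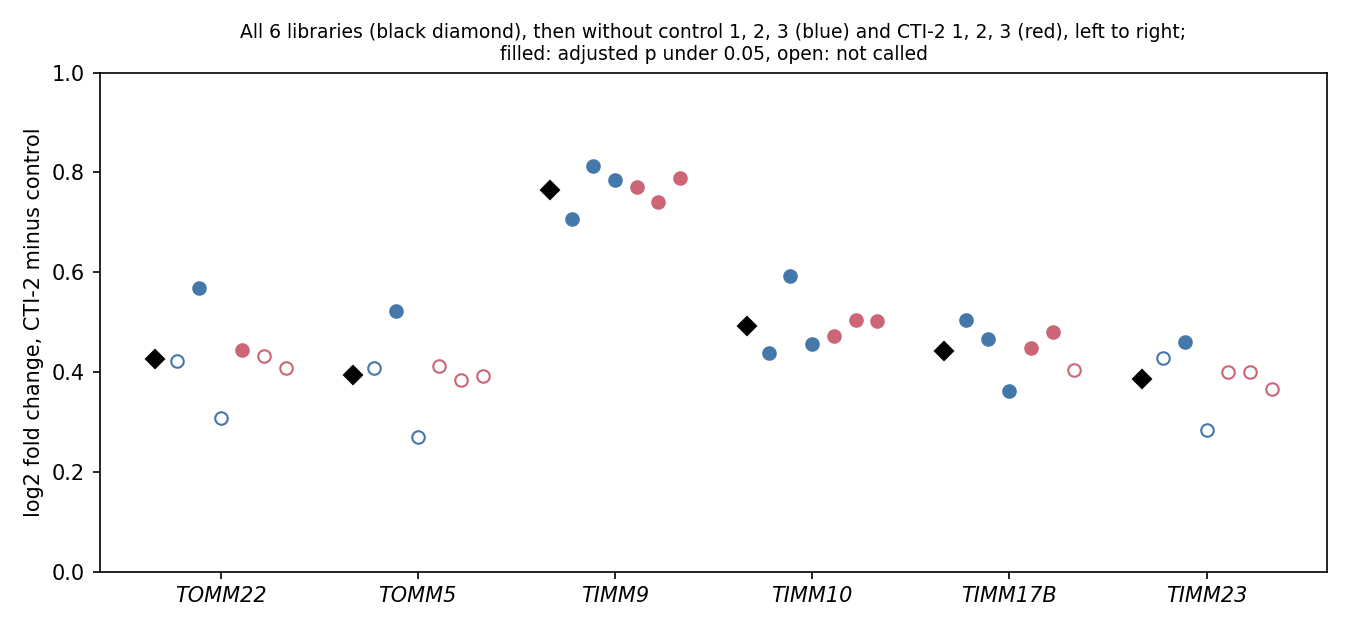
Log2 fold change, CTI-2 minus control, of the 6 called import genes with all libraries (black diamond) and after leaving out each control (blue) or CTI-2 library (red). Filled points passed an adjusted p of 0.05. TIMM9 and TIMM10 are filled throughout, whereas TIMM23 and TOMM5 are open in all but the fit with all libraries and the one without control 2.

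The stretch upstream of the RefSeq start site is shown for the called genes that have an entry in the RefSeq promoter table (GRCh38.p14). These genes are grouped only because each was called higher, and whether they are regulated together was not tested. Of the 68 genes 58 had an entry, and TOMM5 had none. Each window holds the 250 bases before the RefSeq start, 5′ to 3′ on the gene's strand. For TIMM9, TIMM10, TIMM17B and TOMM22 this start differs from that of the gene coordinates given above. The TIMM17B window lies wholly within its gene span (48893447 to 48898143), and those of TIMM9, TIMM10 and TOMM22 run partly into theirs. By those coordinates these windows are not, or not wholly, upstream of the gene. Capitals mark matches on either strand to CCGGAAG (the core bound by ETS factors), GCATGCG (the core of the NRF1 site), CACGTG (E-box), CCAAT (the CCAAT box) or GGGCGG (GC box), and overlapping matches run together. The windows are chr14:58427532-58427781 (TIMM9, minus strand), chr11:57530755-57531004 (TIMM10, minus), chrX:48897769-48898018 (TIMM17B, minus), chr10:45972239-45972488 (TIMM23, plus) and chr22:38681707-38681956 (TOMM22, plus).
TIMM9: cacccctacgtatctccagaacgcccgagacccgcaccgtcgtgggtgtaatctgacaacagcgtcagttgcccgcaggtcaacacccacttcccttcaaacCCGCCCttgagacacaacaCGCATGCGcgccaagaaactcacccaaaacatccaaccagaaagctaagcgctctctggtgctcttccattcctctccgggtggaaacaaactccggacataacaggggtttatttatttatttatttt
TIMM10: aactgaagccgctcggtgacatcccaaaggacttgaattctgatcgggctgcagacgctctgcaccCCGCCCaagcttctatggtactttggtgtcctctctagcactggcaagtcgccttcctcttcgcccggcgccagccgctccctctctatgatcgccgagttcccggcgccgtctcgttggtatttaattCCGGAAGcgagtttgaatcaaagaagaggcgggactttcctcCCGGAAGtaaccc
TIMM17B: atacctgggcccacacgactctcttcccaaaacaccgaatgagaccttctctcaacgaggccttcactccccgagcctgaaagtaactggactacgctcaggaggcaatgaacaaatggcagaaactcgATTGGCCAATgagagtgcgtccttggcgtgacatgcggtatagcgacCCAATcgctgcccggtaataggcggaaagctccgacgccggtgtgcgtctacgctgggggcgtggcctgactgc
TIMM23: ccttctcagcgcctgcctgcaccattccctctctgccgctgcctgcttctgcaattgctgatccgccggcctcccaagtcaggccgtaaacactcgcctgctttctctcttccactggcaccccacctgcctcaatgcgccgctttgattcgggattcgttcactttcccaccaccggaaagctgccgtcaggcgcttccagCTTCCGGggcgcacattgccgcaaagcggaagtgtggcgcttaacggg
TOMM22: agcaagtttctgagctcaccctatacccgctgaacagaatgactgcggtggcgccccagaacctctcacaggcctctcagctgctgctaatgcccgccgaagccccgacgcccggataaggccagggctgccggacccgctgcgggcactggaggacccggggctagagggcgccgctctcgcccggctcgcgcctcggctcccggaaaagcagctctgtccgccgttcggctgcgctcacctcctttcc

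These windows had no single motif in common. TIMM10 holds CCGGAAG at 55 and at 13 bases before the RefSeq start and TIMM23 holds it, on the other strand, at 48 bases. TIMM9 holds GCATGCG on both strands, at 129 and 128 bases, and TIMM17B holds 3 CCAAT matches, of which the pair at 121 and 116 bases lies on opposite strands. None of the searched letters occur in the window of TOMM22. CCGGAAG was found in 9 of the 22 import genes with an entry (40.9%) and 7 of the 36 carriers (19.4%), beside 8.8% of all 27305 promoters of the same length. The GC box was found in 59.1% of import genes, 72.2% of carriers and 42.3% of all promoters. The other shares, for import genes, carriers and all promoters in that order, were 9.1, 2.8 and 3.6% for GCATGCG, 4.5, 16.7 and 6.5% for CACGTG and 36.4, 47.2 and 33.0% for CCAAT. The 27305 promoters outnumber the 16362 genes of the deposited gene table and were not limited to genes tested here. They are therefore not a matched set for the import genes or carriers, and promoters of tested genes alone were not searched as a comparison. Whether any motif is more frequent in import genes than in like genes was not tested. Matches are given as a description of the letters.

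Among the carriers, those of adenine nucleotides and phosphate supply the matrix with ADP and phosphate and export ATP. SLC25A6, an ADP/ATP translocase, had 587, 589 and 525 CPM in the controls, against 450.3, 416 and 485 CPM with CTI-2. No values overlapped, but the log2 fold change of -0.29 (95% interval -0.51 to -0.06) did not pass (edgeR adjusted p = 0.106). SLC25A6 was called lower with library totals (adjusted p = 0.0196), with the length trend removed (0.0270) and without control 3 (0.0275), and had a log2 fold change of -0.11 with the GC trend removed (adjusted p = 0.621). SLC25A3, the phosphate carrier, had 567, 579 and 540.1 CPM in the controls, against 465, 523 and 512 CPM with CTI-2. Its groups did not overlap in CPM without TMM scaling. The log2 fold change was -0.12 with an interval of -0.34 to 0.10 (edgeR adjusted p = 0.538, -0.18 to -0.05 with 1 library left out).

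The other ADP/ATP translocases differed less from 0. SLC25A5 had 409, 421 and 401 CPM in the controls, against 413, 352 and 347 CPM with CTI-2, with CTI-2 library 1 among the controls (log2 fold change -0.10, interval -0.32 to 0.13, edgeR adjusted p = 0.634, -0.19 to -0.03 with 1 library left out). It shares 25.5% of its 31-base words with 7 other annotated genes, none of them in the table. SLC25A4 had 69.3, 61.8 and 47.7 CPM in the controls, against 59.0, 72.1 and 64.3 CPM with CTI-2, so the ranges overlapped (log2 fold change 0.17, adjusted p = 0.502, 0.01 without control 3). The nucleotide and cofactor carriers SLC25A17 (a peroxisomal member of the family), SLC25A32 (folate), SLC25A36 (pyrimidine nucleotides), SLC25A51 (NAD) and the ATP-Mg/phosphate carriers SLC25A23 and SLC25A24 had log2 fold changes between -0.16 and 0.41, none called. SLC25A32 shares 88.0% of its 31-base words with AC012213.5, so its 7 to 22 counts per library are uncertain. SLC25A51, which had the 0.41, shares 45.0% of its words with other annotated genes and 33.4% with counted ones. It also lies within AL138752.2 on the same strand, so its 12 to 23 counts per library are uncertain too.

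Carriers of organic acids link the citric acid cycle to the cytosol. SLC25A10, the dicarboxylate carrier, had 28.9, 27.0 and 29.8 CPM in the controls, against 17.1, 22.6 and 21.3 CPM with CTI-2. All 3 CTI-2 libraries were below all controls, and the log2 fold change was -0.44 (95% interval -0.80 to -0.09), which did not pass (edgeR adjusted p = 0.108). With the GC trend removed it was -0.26 (adjusted p = 0.382). SLC25A10 shares 60.7% of its words with AC139530.2, which had 4 to 9 counts per library. SLC25A1, the citrate carrier, was at 16.3 ± 2.57 CPM in the controls, against 14.6 ± 1.67 CPM with CTI-2 (± SD, n = 3 libraries each, edgeR adjusted p = 0.811), and SLC25A11, the oxoglutarate carrier, at 87.2 ± 13.5 and 88.1 ± 7.27 CPM (adjusted p = 0.871). The direction of both changed sign between settings. SLC25A35, whose substrate is less clear, had 18.1, 6.62 and 14.9 CPM in the controls, against 9.83, 6.74 and 5.89 CPM with CTI-2, with control 2 among the CTI-2 libraries (log2 fold change -0.66, edgeR adjusted p = 0.172). It shares 1596 bases with RANGRF on the opposite strand, which rose (log2 fold change 0.43, adjusted p = 0.0196).

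SLC25A30, a relative of the uncoupling proteins, had the widest change of all members in log2 terms on few reads: its counts were 7, 13 and 6 in the controls, against 17, 13 and 14 with CTI-2. In CPM these are 2.70, 3.31 and 2.55 against 5.39, 4.38 and 6.34, without overlap. The log2 fold change of 0.89 had an interval of 0.12 to 1.66 and did not pass (edgeR adjusted p = 0.138). SLC25A14, of the same branch, had 0.31 (adjusted p = 0.294) and SLC25A21, the oxoadipate carrier, -0.31 (adjusted p = 0.595).

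Carriers of amino acids and carnitine were not called either. SLC25A20, which takes acylcarnitines into the matrix for fatty acid oxidation, had 25.04, 26.7 and 32.3 CPM in the controls, against 37.7, 35.1 and 35.3 CPM with CTI-2. Each CTI-2 library was above each control, and its adjusted p of 0.0895 was the lowest of the carriers in edgeR (log2 fold change 0.42, 95% interval 0.10 to 0.73). SLC25A39, linked to mitochondrial glutathione import, had 167, 130.3 and 114 CPM in the controls, against 86.3, 126 and 121 CPM with CTI-2, with overlapping ranges (log2 fold change -0.26, edgeR adjusted p = 0.308). It was -0.10 without CTI-2 library 1, -0.11 without control 1, -0.39 without control 3 and -0.13 with the GC trend removed. The aspartate-glutamate exchangers SLC25A13 (log2 fold change 0.06, interval -0.20 to 0.32) and SLC25A12 (-0.03, interval -0.40 to 0.35) lay near 0, as did the glycine carrier SLC25A38 (0.00, interval -0.27 to 0.28). The glutamate carrier SLC25A22 (-0.22), SLC25A40 (0.06), SLC25A44 (0.29) and the S-adenosylmethionine carrier SLC25A26 (0.27) had edgeR adjusted p of 0.297 to 0.895.

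Mitoferrins bring iron into the matrix for haem and iron-sulfur cluster synthesis. SLC25A28, mitoferrin-2, had 15.02, 10.4 and 17.02 CPM in the controls, against 8.88, 10.1 and 7.70 CPM with CTI-2. The groups came within 1 CPM of each other but did not overlap (log2 fold change -0.57, interval -1.06 to -0.08, edgeR adjusted p = 0.137), and without control 2 the value was -0.73 (adjusted p = 0.0493). SLC25A37, mitoferrin-1, had 50.8, 48.1 and 68.1 CPM in the controls, against 52.0, 44.2 and 38.9 CPM with CTI-2 (log2 fold change -0.23, adjusted p = 0.337, -0.11 without control 3), with overlap. Of the carriers without a firmly assigned substrate, SLC25A53 had 5.01, 4.58 and 5.53 CPM in the controls, against 7.61, 7.08 and 10.4 CPM with CTI-2, without overlap (log2 fold change 0.76, edgeR adjusted p = 0.111). SLC25A46, an outer membrane protein that acts in mitochondrial dynamics, was at 15.5 ± 1.00 CPM in the controls, against 20.4 ± 3.95 CPM with CTI-2 (± SD, n = 3 libraries each, log2 fold change 0.46, edgeR adjusted p = 0.144).

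In all, 54 of the 68 genes passed the low-count filter. The 13 carriers below it were SLC25A2, SLC25A18 and SLC25A52 with at most 1 count in any library, SLC25A25, SLC25A27 and SLC25A29 with 0 to 7 counts, and SLC25A15, SLC25A16, SLC25A33, SLC25A41, SLC25A42, SLC25A43 and SLC25A45 with 1 to 13 counts. With TOMM40 they make up the 14 untested genes, and none of the 14 was called when the filter was lifted.

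Summed over their members, the families took different shares of the libraries. TIMM genes took 0.191, 0.190 and 0.172% of counts in controls 1 to 3, against 0.217, 0.216 and 0.223% in the libraries CTI-2 1 to 3. TOMM genes took 0.259, 0.266 and 0.224% in controls and 0.285, 0.281 and 0.286% after CTI-2. SLC25A genes took 0.250, 0.243 and 0.234% in controls and 0.216, 0.217 and 0.221% after CTI-2. The TIMM and TOMM sums were thus higher in every CTI-2 library than in every control and the carrier sum was lower. Control 3 had the lowest control value of each sum, and without it the TOMM difference was 0.0210 percentage points in place of 0.0341. With TMM-scaled library sizes the TIMM and TOMM sums still did not overlap, while the carrier sum of control 3 (0.223%) fell among those after CTI-2 (0.221 to 0.227%). Each 95% exact binomial interval of these shares, which covers counting error only, was within 0.01 percentage points of its value. The sums are dominated by their best-counted members and are given without a test. Of the 649 tested genes with a mean log2 CPM of 8 and over, 264 were higher after CTI-2 without overlap in CPM and 78 were lower.

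**Figure D5:**
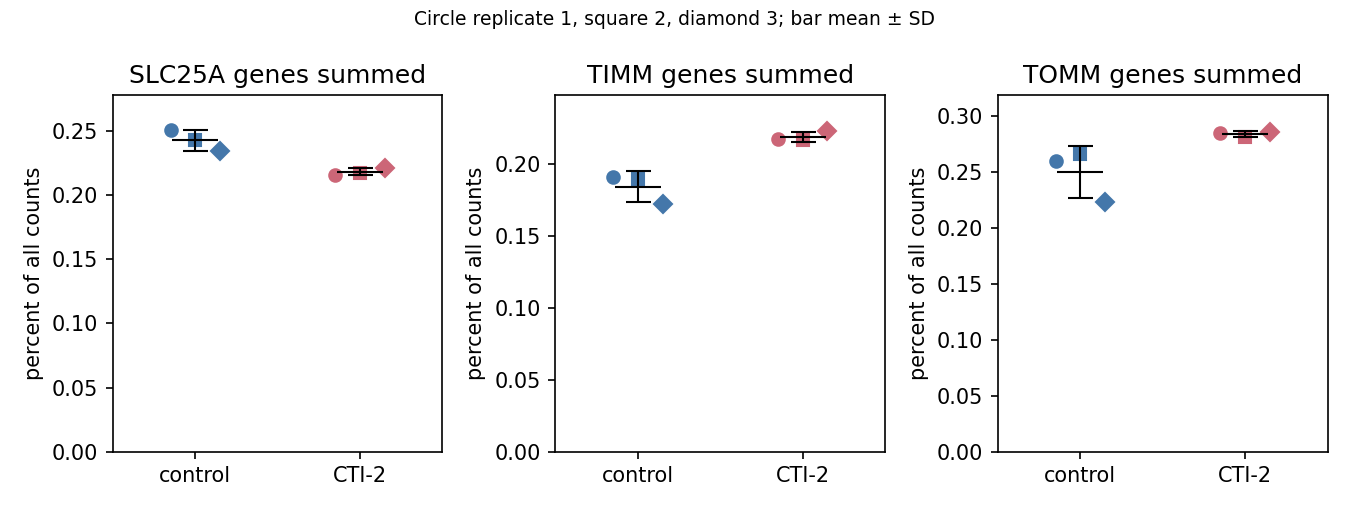
Percent of all counts taken by the SLC25A, TIMM and TOMM genes in each library (circle, square and diamond for replicates 1, 2 and 3), with mean and SD of the 3 libraries per group. The TIMM sum was 0.184 ± 0.0105% in controls and 0.219 ± 0.00345% after CTI-2, the TOMM sum 0.250 ± 0.0230% and 0.284 ± 0.00271%, and the carrier sum 0.242 ± 0.00823% and 0.218 ± 0.00281%.

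Other genes of import and mitochondrial transport, in 5 lists, included 7 that rose and 4 that fell among 72 tested (median log2 fold change 0.09), beside 3.39% higher and 4.64% lower over all genes. Of 13 tested genes of the import motor and presequence processing 1 passed: PMPCA, a subunit of the protease that removes presequences, fell from 175 ± 10.5 to 125 ± 11.7 CPM (± SD, n = 3 libraries each, log2 fold change -0.43, edgeR adjusted p = 0.0115). Of 14 genes of outer membrane insertion and of MICOS, the complex that shapes the cristae, CHCHD3 alone passed: it was at 160.1 ± 11.8 CPM in the controls and rose to 206 ± 13.8 CPM (log2 fold change of 0.41 with adjusted p = 0.0190). Of 9 genes of the intermembrane space relay and membrane insertion AIFM1, which holds the relay receptor CHCHD4, alone passed and rose from 176 ± 9.66 to 231 ± 3.46 CPM (0.44, adjusted p = 0.00845). CHCHD3 was not called without control 1, control 3, CTI-2 library 1 or the next one (adjusted p up to 0.109), AIFM1 not without CTI-2 library 2 (0.0513) and PMPCA not without CTI-2 library 1 (0.123). CHCHD3 and AIFM1 had no counted gene overlapping them, and PMPCA overlaps ENTR1 on the opposite strand.

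Among 22 tested genes of other mitochondrial transporters and channels the outer membrane pore gene VDAC2 rose from 527 ± 36.7 to 661 ± 25.6 CPM (± SD, n = 3 libraries each, log2 fold change 0.37, edgeR adjusted p = 0.0312). VDAC2 was called without control 2 but not when any other library was left out, nor with the GC trend removed (adjusted p up to 0.177). The transporter gene ABCB8 fell from 40.7 ± 7.99 to 25.5 ± 3.88 CPM (-0.60, adjusted p = 0.0181), and SFXN2, a sideroflexin, from 36.7 ± 6.08 to 24.1 ± 1.23 CPM (-0.56, adjusted p = 0.0276). Neither ABCB8 nor SFXN2 passed in DESeq2, ABCB8 was not called without control 3, CTI-2 library 1 or the third one, and SFXN2 was not called without control 1 or without any 1 of the CTI-2 libraries. With the GC trend removed ABCB8 was not called, nor was SFXN2 with the length trend removed. Of 14 tested genes of mitochondrial proteases and quality control 4 rose and 1 fell. SPG7, a subunit of the matrix-facing protease of the inner membrane, had 53.9, 35.6 and 44.3 CPM in the controls, against 17.8, 19.5 and 20.8 CPM with CTI-2, a 2.21-fold lower level (log2 fold change -1.14, edgeR adjusted p = 2.5e-05). STOML2, an inner membrane scaffold, rose from 339 ± 46.3 to 475 ± 22.2 CPM (0.53, adjusted p = 0.00303). ATAD1, which extracts mislocalised proteins from the outer membrane (0.51), TMEM126A (0.50) and the rhomboid protease gene PARL (0.49) also rose, with adjusted p of 0.00537 to 0.00967. ATAD1 was not called without control 1 (adjusted p = 0.0548), nor TMEM126A without control 1 or CTI-2 library 1 (up to 0.0658), and PARL was not followed across settings. PARL overlaps AC131160.1 on the same strand, whose change is not given here. SPG7 and STOML2 were called whichever library was left out.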

How the data were processed

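The deposited files give, per the file headers, raw gene counts and CPM. Each CPM was found to be the count per 1000000 counts in that library. Reads were aligned with minimap2 per the submitters' processing notes. The version, build, annotation, read counter, use of strand and filters are not stated in those notes or labels. The deposited gene length (an other value, per the file headers) equals the GENCODE 29 span for 80.6% of 14408 Ensembl genes, and gene coordinates are given only for such genes. Promoter windows follow the RefSeq promoter table, whether or not the span was equal.

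Counts were filtered with edgeR's filterByExpr (9848 genes), TMM-scaled and fitted in edgeR 4.0.16 (quasi-likelihood test, R 4.3.3) on 3 against 3 libraries, with Benjamini-Hochberg adjustment over all tested genes and a threshold of 0.05. SEs and 95% intervals were derived from the fold change and the F statistic. The fit was tested on simulated data. Libraries of a group differed by more than sampling noise. Chi-square over its degrees of freedom was 3.91 to 6.92 between controls and 1.78 to 2.40 between CTI-2 libraries. Alternatives were DESeq2 1.42.0, limma-voom (limma 3.58.1), other scalings and filters, a replicate block, leaving out each library, an adjusted p of 0.01, lowess removal (span 0.3) of the trend with transcript length in each library and, chosen after seeing the data, with GC content.

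The members and lists were chosen with earlier results of these data known. Named are all called members, up to 2 best-counted tested members of each role, 15 members regardless of outcome, and up to 4 called genes of each other list. PARL and the remaining members were named after their values were seen. 1 tested carrier is counted in the totals but its values are not reported here.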

Additional observations from a re-analysis of the deposited data

How the results depend on the processing

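The 6 calls of import genes held in each fit with other scaling, filters, DESeq2, limma-voom, the replicate block and the removal of the length or GC trend. At an adjusted p of 0.01 there were 3 called carrier and import genes, all 3 of them higher import genes, 6 other import and transport genes and 306 genes over the whole table. DESeq2 called 504 genes in all, of 7163 with an adjusted p, and 46.2% of its calls were lower, against 57.8% in edgeR. Leaving out 1 library gave 2 to 13 called carrier and import genes (2 to 11 higher import genes and 0 to 2 lower carriers), 5 to 26 other import and transport genes and 400 to 1610 genes in all, the highest values without control 2, where 40.6% of calls were lower. The number of lower carriers, 0 in edgeR with 4 at an unadjusted p under 0.05, was 1 with library totals and 1 with the length trend removed, SLC25A6 each time, and 0 in DESeq2 and limma-voom. The log2 fold change changed sign for SLC25A1 with the GC trend removed (0.0692) and when libraries were left out (-0.20 to 0.00462), for SLC25A11 with the length trend removed (-0.00214) and when libraries were left out (-0.0751 to 0.24), for SLC25A13 without control 2 (-0.00100, the lowest of -0.00100 to 0.14) and for TOMM7 with the length trend removed (-0.0513). For these the cause was not tested. Same-numbered libraries did not deviate together (r = -0.05, 0.01 and -0.12 across genes, against -0.10 to 0.14 for other pairs). With 3 libraries per group this cannot exclude a pairing, and the main fit was unpaired. With the replicate block 942 genes passed in all, and 6 carrier and import genes, the same 6. In these libraries 14 of the 68 carrier and import genes, TOMM40 among them, had too few counts to be tested.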
